A study of Mus musculus with 6 samples.

Results

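The genes described here are the mouse TRIM family, taken as every gene whose symbol is Trim followed by a number, pseudogenes left out. There were 55 of them among 26835 genes with values, and 33 were expressed well enough to be tested. Within the family, 8 members classed as interferon-type (the Trim30 cluster Trim30a, Trim30b, Trim30c and Trim30d, with Trim21, Trim25, Trim34a and Trim34b) were set beside the other 47.

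The cells were bone marrow-derived macrophages of wild-type BALB/C mice aged 5 to 8 weeks, grown from marrow for 6 days with M-CSF at 25 ng/ml, the growth factor that drives macrophage formation, and 10% serum. Treatment lasted 24 h and was either 10 µg of vesicles shed by the mouse osteosarcoma line K7M2 (K7M2-EV) or PBS, the buffer control. Each group held 3 libraries that the submitters describe as independent experiments, whether of separate animals is not given, and all were cultured primary cells without a sort. Levels are in FPKM, which divides the fragments of a gene by transcript length and sequencing depth.

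TRIM proteins share a tripartite motif, in which a RING domain, which recruits ubiquitin-loaded enzymes, is followed by B-box zinc fingers and a coiled coil. Most act as ubiquitin ligases, and the domain at the tail decides what they bind. In macrophages a subset is known to be induced by interferon and to act on viruses or on the sensors and kinases that switch on interferon and NF-κB, while others work in chromatin, on the cytoskeleton or at membranes.

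The tested interferon-type members were mostly higher with vesicles. Trim30a averaged 40.1 ± 1.99 FPKM with K7M2-EV and 16.0 ± 0.917 FPKM with PBS (SD, n = 3 each). Of 7 tested, 6 rose and none fell (limma, Benjamini-Hochberg adjusted p under 0.05), where 18.4% of all 13009 genes tested rose and 35.6% fell. Trim25 was the member without a call. The other 26 TRIM genes tested divided into 6 that rose, 12 that fell and 8 without a call. Over the whole family that made 12 rises and 12 falls in 33 genes, so 72.7% were called in either direction, against 54.0% of all genes tested. The median log2 fold change was 0.66 for the interferon-type members, -0.21 for the other TRIM genes and -0.12 for all genes tested, on the log2(FPKM + 1) scale used for every log2 value here. No test of one list against the other was made. In bulk RNA, fewer cells of a type and less RNA per cell cannot be told apart.

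The split of the other TRIM genes depended on how libraries were scaled. Dividing each library by its median ratio to the average library moved the median of the 13009 genes tested by 0.11 on the log2 scale. The 26 other TRIM genes then gave 9 rises and 8 falls, and the family as a whole 15 rises and 8 falls in place of 12 and 12. The interferon-type count stayed at 6 rises and 0 falls, and under this scaling 26.5% of all genes rose and 26.0% fell.

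**Figure D1:**
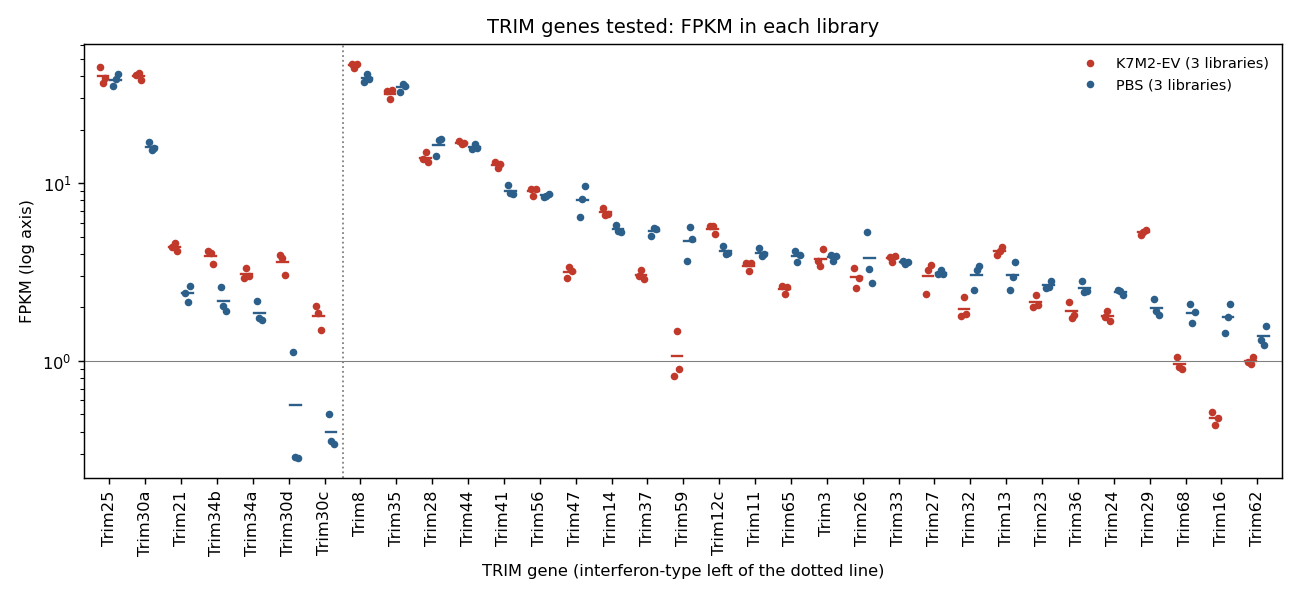
FPKM (log axis) of the 33 TRIM genes tested, interferon-type members left of the dotted line; points are the 3 libraries of each group, K7M2-EV (red) left of PBS (blue), short bars are group means, and the grey line marks 1 FPKM. Trim30a lies between 37.9 and 41.6 FPKM with K7M2-EV and between 15.3 and 17.1 FPKM with PBS, whereas the Trim25 libraries of the 2 groups overlap.

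Sequence upstream of the interferon-type genes is shown first, because 6 of the 7 tested rose. RefSeq promoter windows on GRCm38.p6, from 250 bases before to 50 after a start site, were available for 41 of the 55 genes, in 55 windows. They come from the C57BL/6J reference, not from BALB/C. The motif searched, on both strands, was the core of the interferon-stimulated response element (ISRE), written here as GAAA and a second GAAA with any 2 bases between them. The windows below are Trim30a (chr7:104465144-104465443, minus strand), Trim30d (chr7:104507800-104508099, minus strand), Trim21 (chr7:102565433-102565732, minus strand) and Trim25 (chr11:88999153-88999452, plus strand). Capitals mark the ISRE core, and Trim25 is shown as an interferon-type member whose window holds none. The windows of Trim34b, Trim30c and Trim30b, not printed here, held none either, and Trim34b and Trim30c rose.
Trim30a: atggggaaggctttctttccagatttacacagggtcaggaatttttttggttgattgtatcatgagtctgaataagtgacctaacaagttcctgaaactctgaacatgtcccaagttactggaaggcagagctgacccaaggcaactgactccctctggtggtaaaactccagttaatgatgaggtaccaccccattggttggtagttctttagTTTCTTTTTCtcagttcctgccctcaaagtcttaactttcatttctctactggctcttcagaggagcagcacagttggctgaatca
Trim30d: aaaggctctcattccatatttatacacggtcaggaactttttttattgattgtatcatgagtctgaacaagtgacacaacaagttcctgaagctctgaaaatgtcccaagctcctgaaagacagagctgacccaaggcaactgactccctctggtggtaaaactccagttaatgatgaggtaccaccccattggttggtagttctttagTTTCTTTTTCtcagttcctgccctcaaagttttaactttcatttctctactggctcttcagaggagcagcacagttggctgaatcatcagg
Trim21: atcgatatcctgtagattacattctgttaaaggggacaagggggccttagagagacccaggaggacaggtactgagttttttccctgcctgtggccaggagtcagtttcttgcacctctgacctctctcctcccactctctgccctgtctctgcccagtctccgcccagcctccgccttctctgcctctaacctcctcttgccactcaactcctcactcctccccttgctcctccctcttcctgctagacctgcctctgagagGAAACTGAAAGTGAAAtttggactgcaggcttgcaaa
Trim25: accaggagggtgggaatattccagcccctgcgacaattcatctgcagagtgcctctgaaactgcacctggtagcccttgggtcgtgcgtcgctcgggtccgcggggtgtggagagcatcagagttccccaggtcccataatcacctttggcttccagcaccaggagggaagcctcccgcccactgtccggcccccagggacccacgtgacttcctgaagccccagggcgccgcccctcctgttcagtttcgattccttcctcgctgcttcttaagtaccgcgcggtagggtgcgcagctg

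The ISRE core was found in 5 of 9 interferon-type windows (55.6%), in 4 of 46 windows of other TRIM genes (8.70%) and in 1131 of 32851 windows of all genes (3.44%). Those 5 windows belong to Trim21, Trim34a, Trim30d and Trim30a, the last counted at each of its annotated starts. Trim30a and Trim30d are paralogues with the same sequence around the core, so the windows are not separate observations. Counted by gene, 5 of 9 TRIM genes that rose held it, against 0 of 8 that fell, 1 of 6 tested without a call and 2 of 18 below the filter. Among all tested genes with a window, 6.73% of those that rose, 3.40% of those that fell and 3.23% of those without a call held it. The γ-activated site, TTCNNNGAA, which reads the same on both strands, was in 1 of 9 interferon-type windows and in 8.30% of all windows. A match is a description of these letters and not evidence of a bound factor.

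Shorter stretches of 40 bases compare the matches between genes. Capitals mark the core, or, where matches overlap, the run they cover. Trim30a and Trim30d carried the same 40 bases, and the second annotated start of Trim30a (inner) the same core. Trim30c had no core, and the place in its window most like it differed from the Trim30a core at a single base, T3C, counted from 1 at the 5′ end of TTTCTTTTTC on the strand printed. Near matches were looked for in Trim30c only, and not in Trim25, Trim34b or Trim30b, whose windows also had no core. The near match therefore does not set Trim30c apart from them. Trim12c and Trim5, neighbours of the Trim30 genes, shared a core with each other, and Trim26 is shown because it held overlapping cores and was not called.
Trim30a: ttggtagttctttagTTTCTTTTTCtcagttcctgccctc
Trim30a (inner): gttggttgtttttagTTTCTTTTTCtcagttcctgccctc
Trim30d: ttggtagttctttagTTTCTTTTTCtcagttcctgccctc
Trim30c: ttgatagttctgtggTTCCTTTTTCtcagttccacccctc
Trim12c: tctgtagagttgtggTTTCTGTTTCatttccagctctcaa
Trim5: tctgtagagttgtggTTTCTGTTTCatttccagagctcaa
Trim34a: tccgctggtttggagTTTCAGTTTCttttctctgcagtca
Trim21: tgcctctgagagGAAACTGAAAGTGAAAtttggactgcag
Trim26: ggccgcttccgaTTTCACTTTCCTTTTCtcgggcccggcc
On GRCm38.p6 these lie on chromosome 7, minus strand, at chr7:104465205-104465244 (Trim30a), chr7:104446099-104446138 (inner), chr7:104507866-104507905 (Trim30d), chr7:104400891-104400930 (Trim30c), chr7:104353354-104353393 (Trim12c), chr7:104288131-104288170 (Trim5) and chr7:102565442-102565481 (Trim21). The other stretches are on the plus strand, at chr7:104244452-104244491 (Trim34a) and chr17:36836974-36837013 (Trim26).

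Trim30a encodes a protein known in mouse macrophages to restrain NF-κB by removing the TAK1 adaptors TAB2 and TAB3. It stood at 40.8, 41.6 and 37.9 FPKM in the K7M2-EV libraries, against 17.1, 15.3 and 15.7 FPKM in the PBS libraries. The groups were well apart, and the ratio of means was 2.50. The log2 fold change was 1.27 (SE 0.064, limma adjusted p = 1.93e-05). These values rest on about 3741 to 4031 implied reads per K7M2-EV library and 1352 to 1651 per PBS library. Among TRIM genes its level was close to that of Trim25 and Trim8 with K7M2-EV and close to those of Trim28 and Trim44 with PBS.

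Trim30d and Trim30c are paralogues of Trim30a in the same cluster. Trim30d stood at 3.92, 3.81 and 3.04 FPKM with K7M2-EV, against 1.12, 0.288 and 0.284 FPKM with PBS. PBS replicate 1 was well above the other PBS libraries but still below every K7M2-EV library. The log2 fold change of 1.59 (SE 0.210, adjusted p = 0.00102) became 1.83 without that library. Trim30c stood at 2.03, 1.87 and 1.5 FPKM with K7M2-EV, against 0.504, 0.355 and 0.340 FPKM with PBS (log2 fold change 1.00, adjusted p = 0.000265). It reached the filter of 1 FPKM in 3 libraries only through the K7M2-EV group, so its place among the tested genes already required a difference. Without it, 5 of 6 tested interferon-type members rose and their median log2 fold change was 0.64. Trim30b, the remaining paralogue, was near 0, at 0.0476, 0.0482 and 0.0286 FPKM with K7M2-EV and 0.0487, 0.0573 and 0.0506 FPKM with PBS, and was not tested.

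Trim21 encodes the cytosolic Fc receptor that marks antibody-coated viruses for the proteasome. It stood at 4.37, 4.58 and 4.16 FPKM with K7M2-EV, against 2.41, 2.16 and 2.63 FPKM with PBS. The groups did not overlap, with a log2 fold change of 0.66 (SE 0.072, adjusted p = 0.000452). Trim34b and Trim34a, close copies of a gene that is interferon-induced in human cells, rose by similar amounts. Trim34b was at 4.15, 4.06 and 3.51 FPKM with K7M2-EV, against 2.61, 2.03 and 1.91 FPKM with PBS (log2 fold change 0.63, adjusted p = 0.00253). Trim34a was at 2.94, 3.35 and 3.00 FPKM with K7M2-EV, against 2.18, 1.74 and 1.69 FPKM with PBS (0.52, adjusted p = 0.00299). In the GENCODE M21 transcripts, 48.6% of the 75-base words of Trim34a and 42.5% of those of Trim34b also occur in another gene, chiefly in each other, so reads could be split between them. An antisense gene overlaps 23.5% of the Trim34a exon bases. For Trim30a and Trim30d the shared part was 5.0% and 5.4%, and for Trim30c and Trim21 it was 0.

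Trim25 encodes the ligase known to activate the RNA sensor RIG-I, and is a classical interferon-induced gene. It was abundant in both groups, at 45.1, 36.6 and 39.2 FPKM with K7M2-EV, against 35.2, 38.5 and 41.1 FPKM with PBS. The groups overlapped, with a log2 fold change of 0.07 and a 95% confidence interval from -0.16 to 0.30 (adjusted p = 0.554). Its sign turned to -0.01 without K7M2-EV replicate 1 and to -0.07 without replicate 1 of both groups. Median-of-ratios scaling gave 0.22 (adjusted p = 0.0999). The ratio of Trim30a to Trim25 within a library, which no scaling can move, was 0.905, 1.14 and 0.966 with K7M2-EV, against 0.486, 0.398 and 0.382 with PBS.

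Summed over the 8 members, interferon-type FPKM was 103.3, 96.02 and 92.29 with K7M2-EV, against 61.11, 60.48 and 63.64 with PBS. The other 47 TRIM genes summed to 194.1, 187.0 and 193.9 FPKM with K7M2-EV, against 190.1, 201.9 and 200.2 FPKM with PBS. The interferon-type share of all TRIM FPKM was thus 32.2% to 34.7% with K7M2-EV and 23.0% to 24.3% with PBS. Trim30a made up 39.5% to 43.4% of the interferon-type sum with K7M2-EV and 24.7% to 27.9% with PBS.

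**Figure D2:**
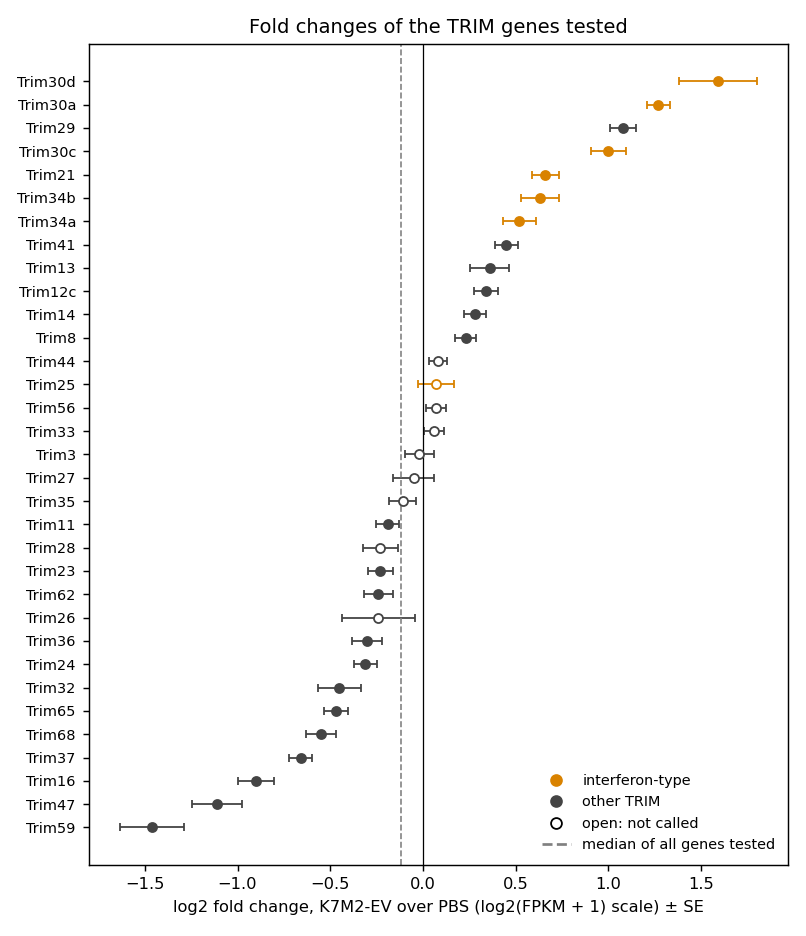
Log2 fold change (K7M2-EV over PBS, log2(FPKM + 1) scale) of the 33 TRIM genes tested, with bars of 1 SE from limma; orange marks interferon-type members, grey the others, open symbols genes without a call, and the dashed line the median of all genes tested, -0.12. All interferon-type members but Trim25, at 0.07, lie at 0.52 or above, and Trim29, at 1.08, is the one gene of the others above 0.5.

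Most interferon-type members sit in a run of TRIM genes on chromosome 7, where 9 members with values span 289.1 kb of GRCm38, from Trim6 at 104218793 to the end of Trim30d at 104507849. All 5 interferon-type members tested there rose (Trim34a, Trim34b, Trim30c, Trim30a and Trim30d), where 18.4% of all genes tested rose. Of these, Trim30c reached the filter only through the K7M2-EV group, and Trim30b, also in the run, was not tested. Trim12c, a mouse relative of the retrovirus restriction factor TRIM5, rose too and lies between Trim34b and Trim30b. Trim12c stood at 5.73, 5.72 and 5.18 FPKM with K7M2-EV, against 4.45, 4.0 and 4.05 FPKM with PBS (log2 fold change 0.34, SE 0.063, adjusted p = 0.00448), and 17.3% of its 75-base words occur in another gene. The other 3 members of the run were barely detected. Trim6 was at 0.127 to 0.194 FPKM with K7M2-EV and 0.220 to 0.244 FPKM with PBS, and Trim5 at 0.018 to 0.158 FPKM with K7M2-EV and 0.0312 to 0.182 FPKM with PBS. The run thus held genes above 1 FPKM that rose and genes near 0, side by side. Trim21 and Trim68 lie elsewhere on the chromosome, and Trim68 fell.

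**Figure D3:**
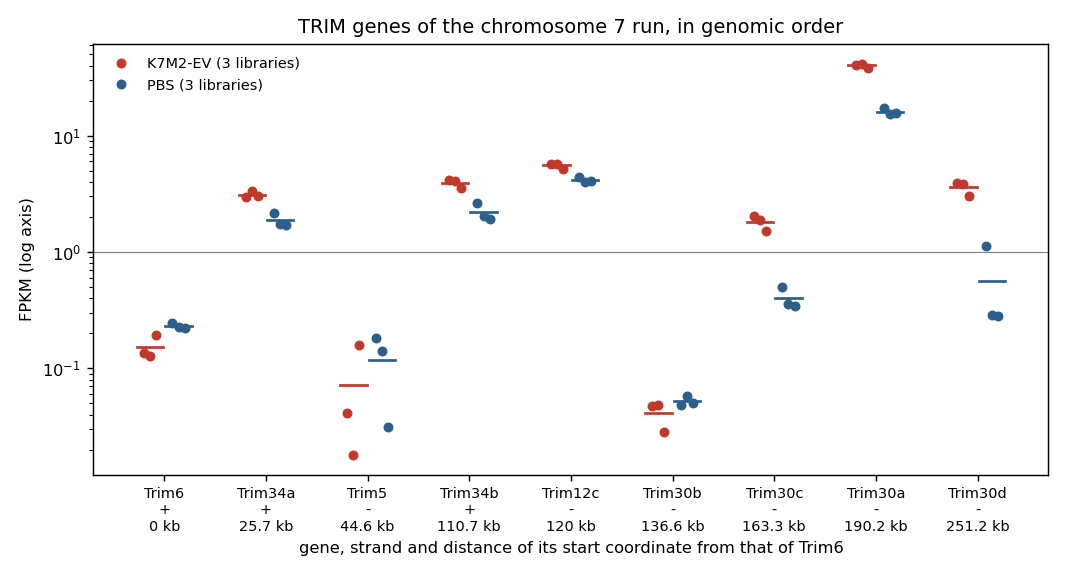
FPKM (log axis) of the 9 TRIM genes of the chromosome 7 run in genomic order, with strand and distance from the start of Trim6 under each name; points are libraries, K7M2-EV (red) left of PBS (blue), short bars are means, and the grey line marks 1 FPKM. The 6 genes above 1 FPKM with K7M2-EV are all higher there, and Trim6, Trim5 and Trim30b reach at most 0.244 FPKM.

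Outside the interferon-type list, Trim29 rose most. Its product is known in mouse alveolar macrophages to degrade NEMO, a scaffold of NF-κB and interferon signalling. It stood at 5.13, 5.32 and 5.42 FPKM with K7M2-EV, against 2.23, 1.91 and 1.81 FPKM with PBS. The groups were far apart, with a ratio of means of 2.67 and a log2 fold change of 1.08 (SE 0.070, adjusted p = 5.01e-05). Trim41, known as a ligase of protein kinase C, stood at 13.2, 12.1 and 12.8 FPKM with K7M2-EV, against 9.71, 8.77 and 8.64 FPKM with PBS (log2 fold change 0.45, adjusted p = 0.00129).

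Smaller rises came from signalling members. Trim14, which lacks a RING and serves as a mitochondrial adaptor in human cells, was at 7.25, 6.63 and 6.75 FPKM with K7M2-EV, against 5.83, 5.37 and 5.28 FPKM with PBS (0.28, adjusted p = 0.00749). Its exons overlap those of the gene Nans on the opposite strand, and 38.0% of its exon bases are shared with other genes, whose reads cannot be told apart without strand. Trim8, which promotes TAK1 activation, was the most abundant TRIM gene in both groups. It was at 47.0, 44.2 and 46.6 FPKM with K7M2-EV, against 37.3, 40.9 and 38.8 FPKM with PBS (0.23, adjusted p = 0.0148). Trim13, anchored in the endoplasmic reticulum, was at 3.93, 4.13 and 4.36 FPKM with K7M2-EV, against 2.51, 2.98 and 3.61 FPKM with PBS (0.36, adjusted p = 0.0284). These 3 calls were the weak ones. Trim13 lost its call when any library but PBS replicate 3 was left out (adjusted p = 0.055 to 0.0899) and with no filter (0.0542), and Trim8 lost it without K7M2-EV replicate 1 or 3 (0.0559 and 0.0540). Trim14 lost it without replicate 3 of both groups (0.0814).

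The deepest fall among TRIM genes tested was that of Trim59. This membrane-anchored member, linked to proliferation, stood at 0.827, 1.47 and 0.907 FPKM with K7M2-EV, against 3.63, 5.69 and 4.85 FPKM with PBS. Replicate 2 was the highest library of each group, and the groups did not overlap (log2 fold change -1.46, SE 0.172, adjusted p = 0.00061). The PBS mean was 4.42 times the K7M2-EV mean. Trim47 stood at 2.92, 3.38 and 3.19 FPKM with K7M2-EV, against 6.43, 8.12 and 9.67 FPKM with PBS (-1.11, adjusted p = 0.000674). It shares 225 exon bases with its neighbour Trim65 on the same strand, 8.2% of its own.

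Trim16, which takes part in the clearance of damaged lysosomes in human cells, stood at 0.517, 0.435 and 0.475 FPKM with K7M2-EV, against 1.43, 1.76 and 2.09 FPKM with PBS (-0.90, adjusted p = 0.00048). It reached the filter only through the PBS group, the counterpart of Trim30c. Trim37, a centrosomal and chromatin ligase, stood at 2.99, 3.23 and 2.90 FPKM with K7M2-EV, against 5.06, 5.62 and 5.50 FPKM with PBS (-0.66, adjusted p = 0.000237). Trim68, near the Trim21 locus, was at 1.05, 0.93 and 0.9 FPKM with K7M2-EV, against 2.1, 1.63 and 1.89 FPKM with PBS (-0.55, adjusted p = 0.00174). Trim65, described as a ligase of the RNA sensor MDA5, was at 2.63, 2.39 and 2.59 FPKM with K7M2-EV, against 4.13, 3.61 and 3.93 FPKM with PBS (-0.47, adjusted p = 0.00129). For each of these genes every K7M2-EV library was below every PBS library.

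Trim32, a ligase with an NHL tail, was at 1.79, 2.29 and 1.83 FPKM with K7M2-EV, against 2.51, 3.25 and 3.42 FPKM with PBS (-0.45, adjusted p = 0.016). It lost its call without K7M2-EV replicate 1 or 3 or PBS replicate 3 (0.0553, 0.0560 and 0.0553). Trim24 was at 1.77, 1.90 and 1.67 FPKM with K7M2-EV, against 2.52, 2.46 and 2.34 FPKM with PBS (-0.31, adjusted p = 0.00684). It belongs to the TIF1 group of chromatin cofactors, with Trim28, Trim33 and Trim66. Trim24 lost its call without replicate 1 (0.0658) or replicate 3 (0.0675) of both groups. Trim28, the KAP1 corepressor that silences retroelements, was at 13.6, 14.9 and 13.2 FPKM with K7M2-EV, against 14.3, 17.5 and 17.7 FPKM with PBS and was not called (-0.23, adjusted p = 0.0825). It was called lower without PBS replicate 1. Trim33 was not called at 0.06, except as a rise after median-of-ratios scaling (0.18, adjusted p = 0.0424).

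The other 4 falls, of Trim36, Trim62, Trim23 and Trim11, had log2 fold changes from -0.30 to -0.19 and were not called after median-of-ratios scaling. Each also lost its call in several fits with libraries left out, Trim11 without any one library. Trim62 and Trim11 lost it with no filter too. Of all 24 calls, 6 of 6 interferon-type rises, 3 of 6 other rises and 6 of 12 falls were made under every one of 13 alternatives. The 9 genes without a call had log2 fold changes from -0.24 to 0.08. Among them Trim44 and Trim56 were called higher after median-of-ratios scaling (adjusted p = 0.00805 and 0.0201). Trim35, at 29.6 to 33.4 FPKM with K7M2-EV and 32.4 to 36.1 FPKM with PBS, was the most abundant of the uncalled genes outside the interferon-type list.

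By role, 14 of the members tested belong to the innate signalling group, and 5 rose, 5 fell and 4 were not called (median log2 fold change -0.08). The largest rise in this group was 1.08, and it does not hold Trim30a or Trim30d. It is thus a chosen list and not every TRIM gene that acts on innate signalling. Of all genes tested, 18.4% rose and 35.6% fell. After median-of-ratios scaling 6 rose and 2 fell (median 0.05), where 26.5% of all genes rose and 26.0% fell. The TIF1 group had 3 tested, with 1 fall, and both membrane-anchored members, Trim13 and Trim59, were called in opposite directions. Such small counts are to be read against the 54.0% of all genes called. In 12 of the 33 genes tested every K7M2-EV library was above every PBS library, and in 12 every one was below. Over all genes tested, 63.8% were separated in this way, 21.8% upward and 42.0% downward.

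**Figure D4:**
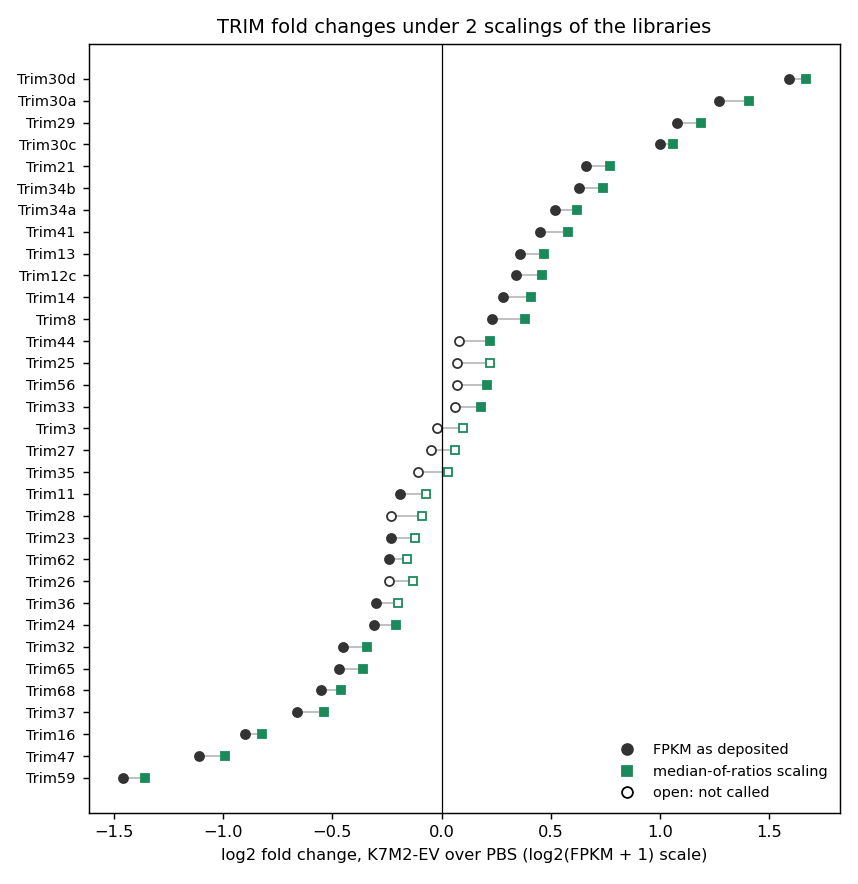
Log2 fold change (K7M2-EV over PBS) of the 33 TRIM genes tested, from FPKM as deposited (circles) and after median-of-ratios scaling (squares), with open symbols for genes without a call. Scaling moves the genes upward together; Trim36, Trim62, Trim23 and Trim11 lose their calls, Trim44, Trim56 and Trim33 gain one, and the interferon-type calls stay as they were.

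The remaining 22 TRIM genes were below 1 FPKM in every library and were not tested. Of these, 12 stayed below 0.1 FPKM throughout. They included Trim38, known in macrophages as a brake on TAB2 and TAB3, at 0 to 0.017 FPKM with K7M2-EV and 0 to 0.0383 FPKM with PBS. Trim10, an erythroid gene, and Trim72 and Trim55, muscle genes, were also in that range. In 4 of the 22 (Trim43b, Trim43c, Trim46 and Trim9) every K7M2-EV library was above every PBS library, and in 6 (Trim66, Trim45, Trim7, Trim6, Trim17 and Trim30b) every one was below. Across all genes below the filter these shares were 5.48% and 21.2%. Some of these separations rest on few implied reads, at most 1.2 per library for Trim43c, 5.3 for Trim9 and 5.9 for Trim17.

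Trim43b, of a family known from the early embryo, had a listed value of 0 in each PBS library (3 of 3) and stood at 0.289, 0.170 and 0.156 FPKM with K7M2-EV, worth about 15.7, 8.5 and 8.5 reads. It shares 33.3% of its 75-base words with Trim43a, Trim43c or another gene. When all 26835 genes were fitted without a filter, Trim43b and Trim46 were called higher (adjusted p = 0.00769 and 0.0436) and Trim45 and Trim66 lower (0.0123 and 0.021). Trim46 was at 0.504, 0.502 and 0.455 FPKM with K7M2-EV, against 0.299, 0.354 and 0.256 FPKM with PBS. Trim45 was at 0.352, 0.321 and 0.314 FPKM with K7M2-EV, against 0.548, 0.645 and 0.603 FPKM with PBS. Of genes below the filter, 2.79% were called higher and 10.4% lower in that fit, and of all genes 9.31% and 20.8%. Over all 55 members, tested or not, every K7M2-EV library was above every PBS library in 16 and below in 18, against 13.4% and 31.3% of all genes.

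Some TRIM proteins carry other gene names. Mefv, which encodes the inflammasome sensor pyrin (TRIM20), stood at 6.49, 5.62 and 7.54 FPKM with K7M2-EV, against 1.02, 0.502 and 0.653 FPKM with PBS. The groups were far apart (log2 fold change 2.13, adjusted p = 5.15e-05), a larger change than that of any gene with a Trim symbol tested. Pml, which builds nuclear bodies (TRIM19), was at 2.28, 2.65 and 4.07 FPKM with K7M2-EV, against 1.90, 2.29 and 1.73 FPKM with PBS. It was not called (0.41, adjusted p = 0.0859), but was called higher without K7M2-EV replicate 1 and after median-of-ratios scaling. The microtubule-binding members Mid1 (TRIM18) and Mid2 (TRIM1) were below the filter, at 0.356 ± 0.0761 and 0.0707 ± 0.0525 FPKM with K7M2-EV, against 0.523 ± 0.0530 and 0.128 ± 0.0738 FPKM with PBS.

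Genes that act beside the interferon-type ligases were measured as fixed lists. The RIG-I pathway list held sensors, adaptors, kinases, transcription factors and regulators. Of its genes, 7 of 17 tested rose and 3 fell (median log2 fold change 0.06), where 18.4% of all genes tested rose and 35.6% fell. After median-of-ratios scaling the split was 9 and 1, where 26.5% and 26.0% of all genes rose and fell. The kinase gene Ikbke was at 39.1 ± 3.68 FPKM with K7M2-EV and 5.41 ± 0.538 FPKM with PBS (2.64, adjusted p = 5.72e-06). Irf7, an interferon regulatory factor, was at 15.8 ± 1.20 FPKM with K7M2-EV and 2.34 ± 0.349 FPKM with PBS (2.33, adjusted p = 8.7e-06). Its rise is counted in this list and again in the next. Among 12 genes of interferon receptors, their kinases, factors and brakes, 5 rose and 2 fell (median 0.23), or 8 and 2 after that scaling, to be read against the same shares of all genes. Usp18 and Socs1, which restrain interferon signalling, rose by 3.18 and 2.98 on the log2 scale (adjusted p = 2.83e-06 and 2e-05). Ifnb1 was not analysed here.

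The cells carried the macrophage label's markers. All 10 macrophage genes checked were tested, 7 rising and 1 falling, where 18.4% of all genes tested rose and 35.6% fell. Their summed FPKM was 13020 to 14510 with K7M2-EV and 4520 to 5510 with PBS. Most of that sum was Lyz2, at 10900 ± 902 FPKM with K7M2-EV and 3750 ± 401 FPKM with PBS. Adgre1, the F4/80 antigen, rose by 3.42 and Fcgr1, an Fc receptor gene, by 1.58 on the log2 scale (adjusted p = 7.83e-06 and 2.41e-05). Cd68 was the 1 that fell, at 202 ± 11.7 FPKM with K7M2-EV and 411 ± 35.3 FPKM with PBS (-1.02, adjusted p = 0.000129). Mertk and Tyrobp were not called (0.13 and -0.31). Neutrophil genes summed to 39.64 to 44.79 FPKM with K7M2-EV and 3.174 to 6.103 FPKM with PBS. Of 3 tested 2 rose, S100a8 and Camp, to be read against the same shares of all genes. S100a9, the other gene tested, was not called (-0.22), at 0.517 ± 0.64 FPKM with K7M2-EV and 0.783 ± 0.688 FPKM with PBS. S100a8 made most of the K7M2-EV sum, at 39.5 ± 2.04 FPKM with K7M2-EV and 3.07 ± 0.186 FPKM with PBS, and Camp, an antimicrobial peptide gene, was at 2.14, 3.27 and 1.26 FPKM with K7M2-EV, against 0.24, 0.309 and 0.0514 FPKM with PBS (log2 fold change 1.38, adjusted p = 0.00273). Camp passed the filter only through K7M2-EV. Ly6g was at 0 in every K7M2-EV library and at 0 to 0.107 FPKM with PBS. Lymphocyte genes summed to 0.6183 to 2.12 FPKM with K7M2-EV and 9.493 to 11.76 FPKM with PBS, most of it Ighm. Mesenchymal genes summed to 233.2 to 622.2 FPKM with K7M2-EV and 165.0 to 370.4 FPKM with PBS, with replicate 2 highest in each group. Runx2, a bone transcription factor gene, fell by 0.54 on the log2 scale (adjusted p = 0.00488). Runx2 reached the filter only through the PBS group, so its place among the tested genes already required a difference. Of 8 tested, 0 rose and 1, Runx2, fell (median log2 fold change 0.29), to be read against the same shares of all genes. With the replicate number as a block, 4 rose and 2 fell. Erythroid and muscle genes summed to at most 1.253 and 0.8329 FPKM in any library. The part of these markers in the TRIM results was not tested.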

How the data were processed

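RNA from 6 libraries, 3 per group, was sequenced after preparation with an NEBNext Ultra kit, per the labels' protocols. Each library has its own deposited table of 26883 gene symbols with FPKM, the unit being read from the values. Tools listed in the submitters' processing notes, without roles, are StringTie 1.3.4b, HISAT2 2.1.0, CASAVA 1.8 and edgeR, with the build GRCm38. Strand and read length are not given in the sources used here. A row without a value (1) and 47 repeats of a symbol were dropped, leaving 26835 genes. Multiplied by GENCODE M21 exon length, low values clustered at whole numbers of reads (72.2% to 73.1% of values up to 20 reads within 0.1, chance 20%), which implied 21435194 to 25604832 reads per library. Implied reads cover counting error only.

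The 13009 genes that reached 1 FPKM in 3 or more libraries were fitted with limma 3.58.1 (R 4.3.3, trend and robust eBayes) on log2(FPKM + 1), adjusted over all of them, with calls at an adjusted p under 0.05. Such fold changes understate low genes. Named were all interferon-type members, the largest called changes of the other TRIM genes (up to 8 each way), and the 2 largest called genes of each other list. Genes outside that rule, such as Trim43b, were chosen after their values were seen. The members and lists were chosen with earlier results of these data known. Steps were tested on simulated data. Same-numbered libraries deviated together (correlations 0.317, 0.294 and 0.209), so numbers were taken to pair samples, which no label states. The main results come from the unblocked fit, as planned, because the labels state no blocked design. The block was run as an alternative. Other pseudocounts, filters, scalings and left-out libraries were tried. Python 3.11.15 with pandas 2.3.3 and matplotlib 3.10.9 made tables and plots.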

Additional observations from a re-analysis of the deposited data

How the results depend on the processing

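The interferon-type count of 6 rises was found in all 13 alternatives, and the replicate block changed no TRIM call, with 12 rises and 12 falls as in the fit without it. The interferon-type median log2 fold change was 0.84 with a pseudocount of 0.1 and 0.77 after median-of-ratios scaling. The median of the other TRIM genes was -0.24 with the pseudocount of 0.1, -0.05 with no filter and -0.08 after that scaling. Leaving out libraries gave 10 to 12 rises and 6 to 10 falls in the family, with 7 falls without K7M2-EV replicate 3 and 6 without replicate 3 of both groups. It gave interferon-type medians of 0.58 to 0.74 and medians of the other TRIM genes of -0.20 to -0.16. The sign of Trim25 turned to -0.01 without K7M2-EV replicate 1 and to -0.07 without replicate 1 of both groups, and its range over left-out libraries was -0.07 to 0.14. The same genes were tested when libraries were left out or rescaled. With 3 libraries per group, the calls of several TRIM genes rested on single libraries or on the scaling, and the cause was not tested. Most of these changes were about 0.3 or less in size on the log2 scale, but Trim13 was at 0.36 and Trim32 at -0.45.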

Other observations

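TRIM ligases work with ubiquitin-loading enzymes. Of 15 tested genes for ubiquitin, its activating and conjugating enzymes and the segregase Vcp, 4 rose and 2 fell (median log2 fold change 0.08), and after median-of-ratios scaling 9 rose and 0 fell. In all 6 of the 15 were called before that scaling, where 54.0% of all genes tested were, and 18.4% of all genes rose and 35.6% fell. After it, 26.5% of all genes rose and 26.0% fell. The activating enzyme gene Uba1 was at 76.5 ± 0.760 FPKM with K7M2-EV and 53.9 ± 2.00 FPKM with PBS (log2 fold change 0.50, limma adjusted p = 0.000359). Vcp, which extracts ubiquitinated proteins, was at 63.0 ± 1.52 FPKM with K7M2-EV and 44.5 ± 2.64 FPKM with PBS (0.49, adjusted p = 0.000777).

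Trim28 silences through partners that modify chromatin. Of 10 such genes tested, 5 fell and 1 rose (median -0.19), or 3 and 2 after median-of-ratios scaling. Of all genes tested 35.6% fell and 18.4% rose, and 26.0% and 26.5% after that scaling, so with 10 genes these counts are near the background. The heterochromatin protein gene Cbx3 was at 2.43 ± 0.795 FPKM with K7M2-EV and 5.46 ± 0.722 FPKM with PBS (-0.94, adjusted p = 0.00603). Cbx5 was at 6.30 ± 0.665 FPKM with K7M2-EV and 11.7 ± 3.03 FPKM with PBS (-0.78, adjusted p = 0.0114), a call lost without replicate 3 of both groups.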
